A study of Mus musculus with 24 samples.

Results

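The 12 arrays of left ventricle taken at 12 months, of 24 in all, were used to ask whether a mutant tropomyosin changed gene expression by a different amount in mouse hearts with and without phospholamban. Each of 4 genotypes had 3 arrays: nontransgenic mice (NTG), α-tropomyosin transgenic mice (Tm180), phospholamban knockout mice (PLB KO), and mice with both changes (Tm180/PLB KO). The other 12 arrays held the same genotypes at 4 months. The submitters describe the arrays of a genotype as biological replicates, without saying whether each was a single mouse, so p-values measure the spread between these samples. The labels name neither the promoter of the transgene nor the sex of the mice, and the series as used here has no group with a transgene for normal tropomyosin. In the published work on this line the transgene is driven in heart muscle cells by the α-myosin heavy chain promoter.

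The quantity reported is the interaction, (Tm180/PLB KO − PLB KO) − (Tm180 − NTG), on the log2 scale, where 1 unit is a 2-fold ratio. At 0 the transgene multiplied expression by the same factor in both backgrounds. For a gene that was higher in Tm180, a negative interaction means a smaller rise, or a fall, where phospholamban was missing. For a gene that was lower in Tm180, a positive interaction means the smaller drop.

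As background, α-tropomyosin lies along the thin filament of the sarcomere and, with troponin, lets myosin reach actin when calcium rises. Tm180 carries a mutation known from familial hypertrophic cardiomyopathy, which raises the calcium sensitivity of the myofilament. Phospholamban is a small membrane protein that holds back SERCA2, the pump that returns calcium to the sarcoplasmic reticulum, and its loss speeds calcium removal and relaxation. Hearts under strain are known to raise the natriuretic peptides and fetal sarcomere genes, to deposit matrix, and to lower genes for the use of fatty acids.

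The deleted and the transgenic gene were read first. Pln, phospholamban, read 13.71, 13.82 and 13.84 in NTG, 13.66, 13.59 and 13.88 in Tm180, 6.37, 5.66 and 6.63 in PLB KO, and 6.40, 5.94 and 6.64 in Tm180/PLB KO. Every array of the knockout genotypes therefore lay far below every array with the gene, and Pln differed between PLB KO and NTG by −7.57 (adjusted p = 4.8e-12, limma). Its interaction was 0.18 ± 0.458 (SE), with a 95% interval from −0.77 to 1.14, and −0.097 without PLB KO replicate 2. Tpm1, the gene of α-tropomyosin, was higher by 0.31 in Tm180 than NTG and by 0.45 in Tm180/PLB KO than PLB KO, and in both pairs the 3 transgenic arrays all lay above the other 3, although neither difference passed the threshold (adjusted p = 0.132 and 0.429, limma). The interaction of Tpm1 was 0.14 ± 0.126, with an interval from −0.12 to 0.40. The probe set does not separate the transcript of the transgene from that of the mouse gene.

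Across the 15918 genes tested, no interaction passed an adjusted p of 0.05 (limma, Benjamini-Hochberg; the lowest adjusted p was 1). At an unadjusted p under 0.05 there were 289 genes, 1.82% of those tested, with 123 positive (0.773%) and 166 negative (1.04%). The count of called genes changed with 1 library: without Tm180 replicate 1, 3 genes were called, namely Lcn2, Cxcl13 and Ahsg. The 289 became 458 in that fit. The transgene effect itself was called for 127 genes where phospholamban was present (0.798%, 62 higher, 0.389%, and 65 lower, 0.408%, in Tm180 than NTG, and 1428 or 8.97% at an unadjusted p under 0.05). It was called for 0 genes where it was missing (limma, 451 or 2.83% at an unadjusted p under 0.05, lowest adjusted p = 0.429 for Sbk3). These counts do not by themselves show that the effects differ, since that is what the interaction tests. The 127 became 66, 43 and 74 without NTG replicate 1, 2 or 3, 15 without Tm180 replicate 2, and 2 when the 12 arrays of 12 months were fitted alone. Other settings raised the 127, to 144 without Tm180 replicate 3 and 174 with the mean of immediate-early genes as a covariate. With the replicate number as a block it was 713. Without Tm180/PLB KO replicate 3, Sbk3 alone was called in the other pair.

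The median standard error of the interaction was 0.225, and the median 95% interval reached 0.468 to either side. Same-numbered arrays of different genotypes varied together, and the intervals leave that number out. With the replicate number as a block the median standard error was 0.165. For 14546 genes (91.4%) the whole interval lay between −1 and 1, so an interaction of more than 2-fold was outside it, and for 7455 genes (46.8%) it lay within 1.5-fold either way. The median over all genes was −0.0136, and 39 genes had an interaction beyond 1 in size. Bulk tissue was measured, so fewer cells of a type and less RNA in each cell cannot be told apart in any result.

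The 20 genes of smallest p, 10 in each direction, describe the largest interactions in relation to their error. None was called, and their values are given as a description. Nppa, the gene of atrial natriuretic peptide, a hormone that the strained heart releases, had the smallest p of all (0.000139, adjusted p = 1, limma). It read 10.35, 11.40 and 10.97 in NTG, 12.83, 13.43 and 12.98 in Tm180, 12.17, 12.98 and 12.98 in PLB KO, and 13.00, 13.28 and 12.84 in Tm180/PLB KO. The 3 NTG arrays were the low ones and the other 9 arrays overlapped, so Nppa was higher by 2.18 in Tm180 than NTG (adjusted p = 0.00239, limma) and by 0.33 in Tm180/PLB KO than PLB KO. Its interaction was −1.85 ± 0.395, from −2.67 to −1.02. PLB KO also exceeded NTG, by 1.81 (adjusted p = 0.0093, limma), a contrast in which 13 genes (0.0817%) were called.

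Nppa is also an atrial gene, and the atrial light chain Myl7 varied between these ventricular samples. Myl7 read 5.51, 8.58 and 5.25 in NTG, 4.85, 5.81 and 5.06 in Tm180, 9.88, 8.58 and 8.36 in PLB KO, and 5.51, 4.99 and 6.60 in Tm180/PLB KO. The PLB KO arrays and NTG replicate 2 were the high ones. The mean of the 13 atrial markers tested ranged over 7.24 to 8.09 in NTG, 7.32 to 7.42 in Tm180, 8.03 to 8.25 in PLB KO and 7.32 to 7.79 in Tm180/PLB KO. With the mean of Myl7, Myl4 and Sln as a covariate, the interaction of Nppa was −1.66, beside −1.85 without it. That mean was 7.99 to 8.73 in the PLB KO arrays and 8.07 in NTG replicate 2. In the other arrays of 12 months it was 5.65 to 6.96. The covariate thus goes largely with the PLB KO genotype, so atrial tissue and genotype cannot be told apart by it. The cause was not tested.

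**Figure D1:**
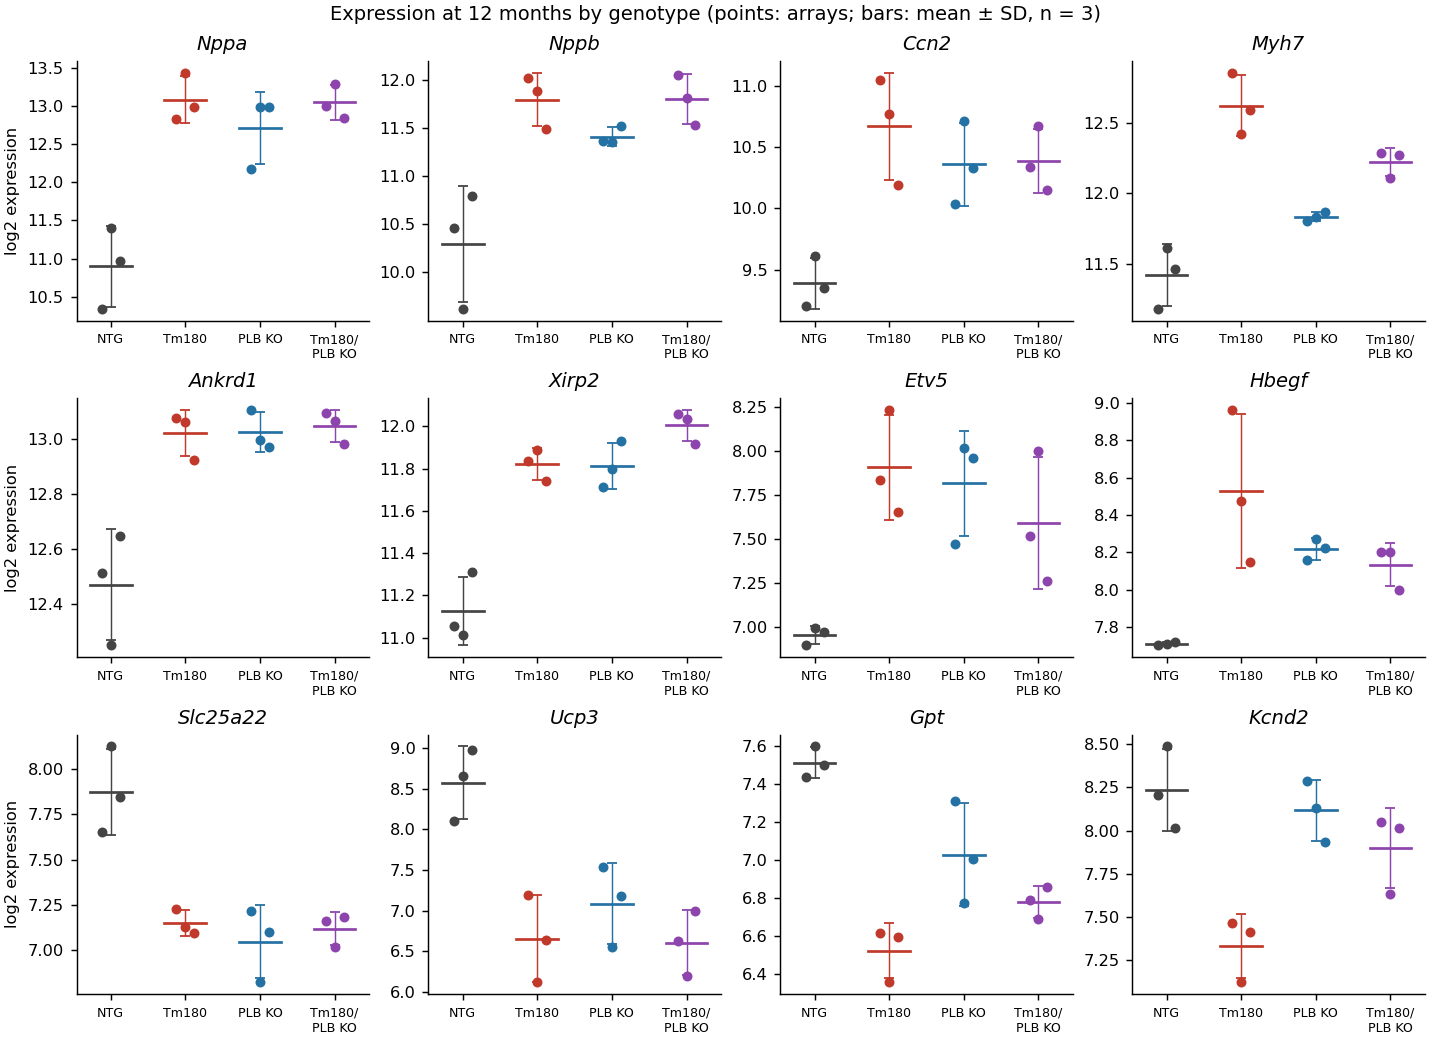
Log2 expression of 12 genes in the 12 arrays of 12 months, with a point for each array and bars for the mean and SD of the 3 arrays of a genotype. In the 8 genes of the first 2 lines of panels NTG is the lowest group, in the other 4 it is the highest, and Tm180/PLB KO lies near PLB KO in all 12 by comparison with the distance between Tm180 and NTG.

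Most of the other 9 negative genes had the same outline. Ccn2, a matrix-associated growth factor also known as CTGF, read 9.21, 9.61 and 9.35 in NTG, 11.04, 10.77 and 10.19 in Tm180, 10.03, 10.71 and 10.33 in PLB KO, and 10.34, 10.67 and 10.15 in Tm180/PLB KO. NTG again stood below all other arrays, the transgene difference was 1.28 in one background and 0.03 in the other, and the interaction was −1.25 ± 0.360 (−2.00 to −0.50). Etv5, an ETS transcription factor downstream of growth factor receptors, read 6.896, 6.996 and 6.975 in NTG, 7.83, 8.24 and 7.66 in Tm180, 7.47, 8.02 and 7.96 in PLB KO, and 7.515, 8.001 and 7.26 in Tm180/PLB KO. Its interaction was −1.18 ± 0.256 (−1.71 to −0.64), and −0.80 by its second probe set. Hbegf, which encodes a ligand of the EGF receptor, read 7.70 to 7.72 in NTG, 8.15 to 8.96 in Tm180, 8.16 to 8.27 in PLB KO and 7.999 to 8.204 in Tm180/PLB KO, with an interaction of −0.90 ± 0.247. Also among the negative genes were Cnksr1, a scaffold of Ras signalling (−0.94), Srpx (−0.87), Masp1, a complement protease (−0.73), and Trf, transferrin (−0.70). Their sign was fixed by the choice of the genes. For Trf, the PLB KO arrays (7.96 to 8.19) and the Tm180/PLB KO arrays (7.76 to 8.14) overlapped NTG (7.56 to 8.03).

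Dlx5, a homeobox transcription factor, differed in shape. It read 6.17, 6.16 and 5.74 in NTG, 6.04, 5.93 and 6.46 in Tm180, 6.73, 6.92 and 7.07 in PLB KO, and 6.113, 5.998 and 6.48 in Tm180/PLB KO. Here PLB KO stood above all other arrays. The transgene difference was 0.12 with phospholamban and −0.71 without it, and the interaction was −0.83 ± 0.222.

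Among the 10 positive genes, NTG was the high group. Slc25a22, a mitochondrial glutamate carrier, read 7.65, 8.12 and 7.85 in NTG, 7.23, 7.13 and 7.10 in Tm180, 7.22, 6.83 and 7.10 in PLB KO, and 7.16, 7.02 and 7.18 in Tm180/PLB KO. All 9 arrays with a genetic change lay below the 3 NTG arrays, and the interaction was 0.79 ± 0.175 (0.43 to 1.16). Ucp3, a mitochondrial carrier that goes with fatty acid use in muscle, read 8.10, 8.65 and 8.98 in NTG, 7.19, 6.12 and 6.64 in Tm180, 7.53, 6.55 and 7.17 in PLB KO, and 6.63, 6.19 and 6.99 in Tm180/PLB KO. Its interaction, 1.44 ± 0.392 (0.63 to 2.26), was the largest of the 10. Gpt, alanine aminotransferase, read 7.44 to 7.60 in NTG, 6.36 to 6.62 in Tm180, 6.77 to 7.31 in PLB KO and 6.69 to 6.86 in Tm180/PLB KO, with an interaction of 0.74 ± 0.200. Gpt was intermediate in the Tm180/PLB KO hearts, above Tm180 and below NTG in every array.

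The remaining positive genes were Lgals4, a galectin (1.07), Mrgprh (1.05), Tmem47 (0.73), Rxrg, a retinoid X receptor (0.70), Crhr2, the urocortin receptor of the heart (0.65), Klhl23 (0.61) and Klhdc8a (0.61). Of all 20 genes, the 3 Tm180 arrays lay wholly above or below the 3 NTG arrays in 19, and PLB KO against NTG in 18. Tm180/PLB KO against PLB KO did so in 2 (Crhr2 and Dlx5). The shares over all genes were 10.6%, 6.72% and 7.83%, and nothing is read from these counts because the same arrays chose the genes.

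The position of NTG can be given for a wider set. Among the 289 genes at an unadjusted p under 0.05, NTG was the genotype farthest from the mean of the other 3 in 171 (59.2%, against 29.5% of all genes). Tm180 was the farthest in 70 (24.2%, against 25.1%), PLB KO in 38 (13.1%, against 29.2%) and Tm180/PLB KO in 10 (3.46%, against 16.1%). These shares too describe genes chosen on the same arrays.

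The hypertrophy genes had the lowest median interaction of the 37 gene lists described. Of 21 fetal and hypertrophy markers tested, 19 had a negative interaction, 9 with an unadjusted p under 0.05 and 0 called. Their median was −0.53, against −0.014 over all genes. For this list and those below, the shares of all genes at an unadjusted p under 0.05 were 0.773% positive and 1.04% negative. Over all genes 7416 interactions were positive and 8502 negative. The genes of a list are measured in the same arrays and are not independent. The median difference of the 21 markers was 0.697 between Tm180 and NTG, with 10 called higher, against 0.389% of all genes. It was 0.08 between Tm180/PLB KO and PLB KO, with 0 called, as over all genes. The lowest member of the list was the atrial light chain Myl7 (−2.03), which was high in the PLB KO arrays and in NTG replicate 2. Nppb, Acta1, Rcan1 and other single genes of lists that are named below without being among the smallest p of their list were chosen after their values were seen.

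Nppb, brain natriuretic peptide, lies beside Nppa on chromosome 4. It read 10.465, 9.623 and 10.793 in NTG, 12.017, 11.882 and 11.485 in Tm180, 11.36, 11.35 and 11.52 in PLB KO, and 12.05, 11.81 and 11.53 in Tm180/PLB KO. NTG was again the low group, with an interaction of −1.11 ± 0.364 (−1.87 to −0.36). Acta1, the skeletal α-actin of the fetal heart, read 10.55, 10.57 and 11.97 in NTG against 11.60 to 12.73 in the other 9 arrays, and its interaction was −1.52 ± 0.480. NTG replicate 3 overlapped the other genotypes for this gene.

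Myh7, which encodes the slow myosin of the fetal ventricle, had 4 genotypes whose arrays did not overlap. It read 11.18, 11.61 and 11.46 in NTG, 12.85, 12.42 and 12.59 in Tm180, 11.80, 11.83 and 11.87 in PLB KO, and 12.28, 12.11 and 12.27 in Tm180/PLB KO. Their order was NTG, PLB KO, Tm180/PLB KO and Tm180. The transgene difference was 1.2045 (adjusted p = 0.00793, limma) with phospholamban. Without it the difference was 0.39 (−0.04 to 0.82, unadjusted p = 0.0759, adjusted p = 0.9997, limma), which did not pass, and the interaction was −0.82 ± 0.293 (−1.43 to −0.21). Ankrd1, a stress-induced protein of the Z disc and nucleus, read 12.25 to 12.65 in NTG and 12.93 to 13.11 in all other arrays, and its interaction was −0.53 ± 0.162. Xirp2, which binds actin at the intercalated disc, read 11.01 to 11.31 in NTG and 11.71 to 12.06 elsewhere, with −0.51 ± 0.156. Rcan1, an inhibitor and target of calcineurin, had −0.89 ± 0.347.

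The 250 bases before the RefSeq start (build GRCm38.p6) are printed for 4 of these genes, which shared a low NTG group. Other genes with a low NTG group, such as Myh7, Ccn2, Etv5 and Hbegf, are not printed, so the 4 do not stand for all of them. Each window is given 5′ to 3′ on the strand of its gene. Capitals mark GATAA, known as the core bound by GATA factors, which reads TTATC on the other strand. They also mark CATTCC, known as the element of TEAD factors, which reads GGAATG on the other strand, and TGANTCA, known as the AP-1 site. The windows are chr4:148000472-148000721 (plus strand) for Nppa, chr4:147985650-147985899 (plus) for Nppb, chr19:36119845-36120094 (minus) for Ankrd1 and chr2:67445752-67446001 (plus) for Xirp2.
Nppa: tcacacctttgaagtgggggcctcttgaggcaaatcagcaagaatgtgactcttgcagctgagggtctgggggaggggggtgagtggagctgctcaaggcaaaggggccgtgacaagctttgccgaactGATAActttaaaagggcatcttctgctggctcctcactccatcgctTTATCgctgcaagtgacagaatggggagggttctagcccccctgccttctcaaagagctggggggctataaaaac
Nppb: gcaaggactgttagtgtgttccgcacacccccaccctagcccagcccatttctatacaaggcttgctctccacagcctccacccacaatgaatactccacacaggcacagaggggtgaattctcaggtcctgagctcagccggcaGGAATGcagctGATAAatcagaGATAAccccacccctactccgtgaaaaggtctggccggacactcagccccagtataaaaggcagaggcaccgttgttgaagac
Ankrd1: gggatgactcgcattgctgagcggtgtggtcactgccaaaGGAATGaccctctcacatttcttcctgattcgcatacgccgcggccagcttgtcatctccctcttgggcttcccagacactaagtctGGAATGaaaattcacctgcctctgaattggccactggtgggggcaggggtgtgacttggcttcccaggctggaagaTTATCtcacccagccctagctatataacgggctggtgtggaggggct
Xirp2: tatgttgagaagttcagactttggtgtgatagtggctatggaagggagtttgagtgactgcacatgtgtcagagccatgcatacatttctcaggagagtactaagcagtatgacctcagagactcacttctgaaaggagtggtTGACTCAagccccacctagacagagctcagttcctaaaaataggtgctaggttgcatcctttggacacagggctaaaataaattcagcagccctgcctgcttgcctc

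Both strands were searched, and no marked match overlaps another. GATAA occurred at 2 places in the windows of Nppa and Nppb, at 1 in that of Ankrd1, and at 0 in that of Xirp2. Over 32851 windows of this length, 22.6% held it on either strand. CATTCC, present in 12.6% of windows, occurred at 1 place in Nppb and 2 in Ankrd1. TGANTCA, in 6.75%, occurred at 1 place in Xirp2. The TATA sequence TATAAA, left in lower case and in 12.4% of windows, occurred at 1 place each in Nppa and Nppb. A match describes the letters only.

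The sarcomere list as a whole stayed near 0. Of 45 sarcomere and Z disc genes, 16 had a positive and 29 a negative interaction, with a median of −0.07 and 7 at an unadjusted p under 0.05. The 6 negative ones among these were Myh7, Acta1, Ankrd1, Xirp2, Ankrd23 (−0.34) and Myl4, and the positive one was Tmod4, a tropomodulin that caps thin filaments (0.63 ± 0.253). Myl4, an atrial light chain, had −1.82 ± 0.873 and read highest in PLB KO (9.46 to 10.42) and in NTG replicate 2 (9.52), as Myl7 did. The main adult proteins gave narrow intervals. Myh6, the adult α-myosin heavy chain, had an interaction of 0.11 (−0.14 to 0.36), and Actc1, cardiac actin, −0.07 (−0.29 to 0.15).

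Genes of calcium handling, the process in which phospholamban acts, had no member at an unadjusted p under 0.05 among 37 tested, and 0 were called (limma). Their median interaction was 0.047, with 22 positive and 15 negative. Atp2a2, the SERCA2 pump itself, read 13.47 to 13.54 in NTG, 13.32 to 13.39 in Tm180, 13.36 to 13.44 in PLB KO and 13.28 to 13.38 in Tm180/PLB KO. Every NTG array lay above the arrays of the other genotypes by a small margin, and its interaction was 0.07 (−0.15 to 0.30). Ryr2, the calcium release channel, had 0.14 (−0.22 to 0.51), Slc8a1, the sodium-calcium exchanger, 0.22 (−0.20 to 0.64), and Casq2, the calcium store protein, 0.05 (−0.48 to 0.58). With 1 array left out these ranged over 0.051 to 0.273 for Ryr2, 0.064 to 0.344 for Slc8a1 and −0.111 to 0.205 for Casq2. Casq2 read 11.47 to 11.61 in the arrays numbered 1 of all genotypes and 11.06 to 11.19 in those numbered 2 and 3. Ryr3, a release channel isoform that is minor in adult heart, had the smallest p of the list. It was higher by 1.55 in Tm180 than NTG (adjusted p = 0.0107, limma), differed by 0.72 in the other pair, and had an interaction of −0.83 ± 0.400 (−1.66 to 0.00), which was −0.54 without PLB KO replicate 3.

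Matrix genes leaned to negative interactions of small size. Of 61 extracellular matrix genes, 55 were negative and 6 positive, with a median of −0.276, 4 at an unadjusted p under 0.05 and 0 called. Their median difference was 0.495 between Tm180 and NTG, with 8 called higher, against 0.389% of all genes. It was 0.235 between Tm180/PLB KO and PLB KO. Apart from Ccn2, the 4 were Svep1 (−0.83), Loxl3, a collagen cross-linking enzyme (−0.42), and Dcn, the collagen-binding proteoglycan decorin (−0.38 ± 0.148). The fibrillar collagens had wide intervals. Col1a1 read 8.50 to 9.35 in NTG, 9.53 to 10.12 in Tm180, 8.91 to 10.09 in PLB KO and 9.60 to 10.17 in Tm180/PLB KO, with an interaction of −0.38 (−1.43 to 0.66), from −0.65 to −0.07 without PLB KO replicate 2 or 3.

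Markers of activated fibroblasts had the highest median transgene difference without phospholamban of the lists, Y-linked genes apart. For 13 such markers its median was 0.331, beside 0.784 between Tm180 and NTG, and the median interaction was −0.353 with 0 at an unadjusted p under 0.05 (limma, 0 called). Postn, periostin, read 7.76, 8.84 and 8.37 in NTG, 9.94, 10.29 and 9.07 in Tm180, 8.90, 8.62 and 9.35 in PLB KO, and 9.85, 10.05 and 9.80 in Tm180/PLB KO. In both backgrounds the transgenic arrays lay above the others, by 1.44 and 0.94, and the interaction was −0.50 (−1.40 to 0.39). It was −0.85 without Tm180 replicate 3 and −0.22 without NTG replicate 1, the ends of its range with 1 array left out. Cilp, a matrix protein of cardiac fibroblasts, had 1.16 and 0.88, with an interaction of −0.27 (−0.84 to 0.29) that was −0.46 without PLB KO replicate 2 and −0.07 without PLB KO replicate 3. Thbs4, a thrombospondin of stressed muscle, had 1.51 and 0.99, and its interaction of −0.52 turned to 0.10 without Tm180 replicate 2, whose value of 9.63 stood above the other Tm180 arrays (7.65 and 7.83). The 12 general fibroblast markers were all negative, with a median of −0.281 and 2 at an unadjusted p under 0.05.

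In the TGF-β pathway, which drives matrix production, the ligands gave the lowest values. Tgfb2 read 6.22, 6.96 and 7.03 in NTG, 8.08, 8.18 and 8.02 in Tm180, 7.02, 6.90 and 7.91 in PLB KO, and 7.65, 7.79 and 7.86 in Tm180/PLB KO. Its Tm180 arrays stood above all others, and its interaction was −0.87 ± 0.381, or −0.55 without PLB KO replicate 3. Tgfb3 had −0.64 ± 0.282. The 29 members had a median of −0.109, with 21 negative and these 2 ligands as the genes at an unadjusted p under 0.05.

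Genes of fatty acid oxidation leaned the other way. All 32 tested had a positive interaction, from 0.05 for Esrra (−0.02 without PLB KO replicate 1) to 1.44 for Ucp3, with a median of 0.267, 3 at an unadjusted p under 0.05 and 0 called. Their median difference was −0.373 between Tm180 and NTG, with 2 called lower, against 0.408% of all genes. It was −0.111 between Tm180/PLB KO and PLB KO. Eci1, an isomerase for unsaturated fatty acids, read 10.83, 10.76 and 10.86 in NTG, 10.09, 10.08 and 10.48 in Tm180, 10.52, 10.27 and 10.31 in PLB KO, and 10.19, 10.08 and 10.29 in Tm180/PLB KO. The NTG arrays stood above the rest, and the interaction was 0.42 ± 0.153. The mean of the list ranged over 10.34 to 10.54 in NTG, 9.86 to 10.06 in Tm180, 9.91 to 10.27 in PLB KO and 9.86 to 10.05 in Tm180/PLB KO.

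Genes of oxidative phosphorylation had the same lean at a smaller size. Of 59 tested, 58 were positive, with a median of 0.157 and 1 at an unadjusted p under 0.05, the complex I subunit Ndufa3 (0.38). Glycolysis and glucose use did not share it: its 30 genes had a median of 0.036. Fbp2, a muscle fructose bisphosphatase, had 0.90 ± 0.371 and Slc2a12, a glucose transporter, 0.51 ± 0.236, while Slc2a1, the transporter that is abundant in fetal heart, had −0.74 ± 0.264. The value of Slc2a1 was −0.47 without Tm180 replicate 2, whose value of 8.93 stood above the other Tm180 arrays (8.09 and 8.11).

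Among 27 cardiac ion channel genes, 23 were positive with a median of 0.225, beside a median difference of −0.305 between Tm180 and NTG. Kcnd2, a potassium channel of the transient outward current, read 8.21, 8.49 and 8.02 in NTG, 7.47, 7.12 and 7.41 in Tm180, 8.29, 8.13 and 7.94 in PLB KO, and 8.05, 7.63 and 8.01 in Tm180/PLB KO. The Tm180 arrays stood below all others, and PLB KO overlapped NTG. Its interaction was 0.69 ± 0.225 (0.22 to 1.15). Scn3b, a sodium channel β subunit, had −0.65 ± 0.207. Of 29 genes of β-adrenergic and cAMP signalling, the route by which phospholamban is controlled, 14 were positive and the median was 0.00, with Adra1b, an α-adrenergic receptor (0.62 ± 0.199), Pde3a, a phosphodiesterase (0.48), and Gnao1, a G protein α subunit (−0.63 ± 0.218), at an unadjusted p under 0.05.

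**Figure D2:**
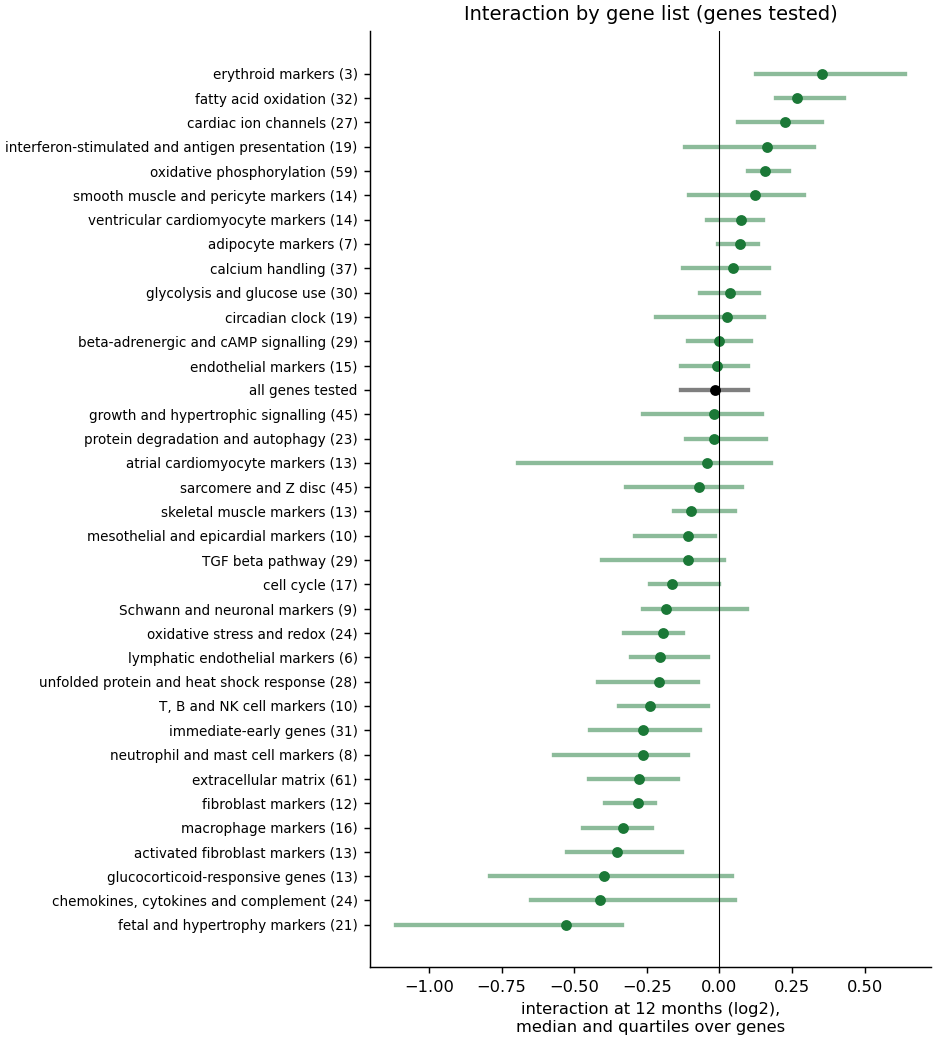
Interaction at 12 months by gene list, with points for the median and bars for the quartiles over the genes tested and the number of genes after each name (Y-linked genes and Xist are left out). Fetal and hypertrophy markers are lowest among the muscle lists at −0.53, fatty acid oxidation lies at 0.267, and all genes tested lie at −0.014.

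Immune lists differed in sign, and single libraries stood out in some of their genes. The 24 chemokines, cytokines and complement genes had a median of −0.412 with 3 at an unadjusted p under 0.05, and the 16 macrophage markers −0.333 with 2. The 19 interferon-stimulated and antigen presentation genes had a positive median of 0.165, with 12 positive and 7 negative. The mean of the macrophage markers ranged over 7.10 to 7.18 in NTG, 7.15 to 7.85 in Tm180, 7.08 to 7.25 in PLB KO and 7.06 to 7.43 in Tm180/PLB KO. Lbp, an acute-phase protein that binds bacterial lipopolysaccharide, had −1.44 ± 0.499, which was −0.88 without Tm180 replicate 2. Lcn2, lipocalin, read 5.05, 7.93 and 8.09 in Tm180 and 5.39 to 6.20 in the other 9 arrays, and Cxcl13, a B-cell chemokine, read 4.41, 6.99 and 7.12 in Tm180 and 4.30 to 5.12 elsewhere. For both genes Tm180 replicate 1 lay with the other genotypes, and these were genes called when it was left out, at −2.67 for Lcn2 and −2.55 for Cxcl13 in place of −1.68 and −1.67.

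The immediate-early genes varied within the groups, and the cause was not tested. The mean of 31 immediate-early genes, which respond within minutes, ranged over 6.83 to 7.90 in NTG, 6.86 to 8.51 in Tm180, 6.96 to 8.59 in PLB KO and 7.10 to 8.16 in Tm180/PLB KO, and their median interaction was −0.264 with 0 at an unadjusted p under 0.05 (limma, 0 called). The 28 genes of the unfolded protein and heat shock response had −0.209. Xist, which marks female cells, exceeded the Y-linked genes in 2 of 3 NTG, 1 of 3 Tm180, 3 of 3 PLB KO and 2 of 3 Tm180/PLB KO arrays. With the Y-linked mean as a covariate Nppa had −1.85, and with the immediate-early mean −1.84. The mean of the 14 ventricular cardiomyocyte markers ranged over 11.97 to 12.28 in all 12 arrays, with a median interaction of 0.075.

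The genes that responded to the transgene at 4 months were read at 12 months. In Tm180 against NTG at 4 months, 47 genes were called higher (0.295% of those tested) and 34 lower (0.214%), 81 in all (0.509%), with a spread estimated over all 24 arrays. The counts higher and lower became 14 and 9 without NTG replicate 1 of 4 months, 20 and 5 without NTG replicate 2, 39 and 17 without NTG replicate 3, 17 and 5 without Tm180 replicate 1, and 23 and 11 without Tm180 replicate 2. At 12 months all 47 had a negative interaction, with a median of −0.42 and quartiles of −0.582 and −0.245, and all 34 a positive one, with a median of 0.363 and quartiles of 0.25 and 0.531. Over all genes the quartiles were −0.132 and 0.097. At an unadjusted p under 0.05 there were 19 of the 47 and 12 of the 34. Over all genes, 1.04% were negative and 0.773% positive at that p. The genes of a set are measured in the same arrays and are not independent.

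A fit of the 12 arrays of 4 months alone, added after the data were seen, chose genes without any array of 12 months. It called 40 genes higher (0.251%) and 16 lower (0.101%), of which 30 and 15 were among the 47 and the 34. At 12 months all 40 had a negative interaction, with a median of −0.497, and all 16 a positive one, with a median of 0.517.

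Both pairs that make up the contrast were also read for the 81 genes. For the 47, the median difference at 12 months was 0.709 between Tm180 and NTG and 0.34 between Tm180/PLB KO and PLB KO, where 45 of the 47 kept their direction. PLB KO differed from NTG by a median of 0.292, and Tm180/PLB KO from Tm180 by −0.076. For the 34, the corresponding medians were −0.647, −0.212 (32 in the same direction), −0.24 and 0.09.

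Averaged over the 47 genes, the arrays read 7.33, 7.63 and 7.46 in NTG, 8.22, 8.45 and 8.17 in Tm180, 7.82, 7.69 and 7.97 in PLB KO, and 8.21, 8.17 and 8.17 in Tm180/PLB KO. PLB KO lay between NTG and both transgenic groups, which overlapped. Averaged over the 34, they read 8.39, 8.58 and 8.55 in NTG, 7.91, 7.58 and 7.93 in Tm180, 8.25, 8.13 and 8.13 in PLB KO, and 7.98, 7.89 and 7.88 in Tm180/PLB KO, in the opposite order. At 4 months the 47 averaged 7.33 in NTG and 7.41 in PLB KO, and the 34 averaged 8.60 and 8.36, but these arrays helped to choose the genes.

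**Figure D3:**
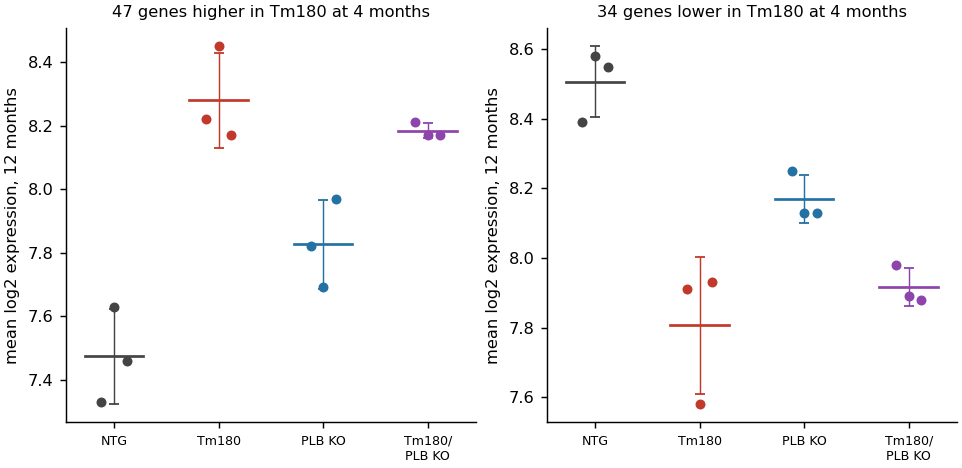
Mean log2 expression at 12 months of the 47 genes called higher and the 34 called lower in Tm180 than NTG at 4 months, with a point for each array and bars for the mean and SD of the 3 arrays of a genotype. In both panels PLB KO lies between NTG and the overlapping transgenic groups.

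Among the 47, the genes with the largest differences at 4 months included Nppa, Myh7, Postn, Thbs4, Cilp and Tgfb2. P3h2, a collagen prolyl hydroxylase, had an interaction of −0.70 ± 0.285, and Mfap5, a microfibril protein, −0.43 ± 0.365, from −0.67 without NTG replicate 2 to −0.24 without PLB KO replicate 3. Among the 34, the largest were Lgi1, Mylk4, Ces1d, Amy1, Slc2a12, Tmod4, Scn4b and Ppbp. The interaction of Ppbp was 0.26, and it turned to −0.39 without NTG replicate 3 of 12 months. Lgi1, a secreted protein best known from synapses, read 6.49, 6.53 and 7.01 in NTG, 5.62, 4.11 and 5.67 in Tm180, 5.88, 4.53 and 4.72 in PLB KO, and 5.22, 5.52 and 5.19 in Tm180/PLB KO. It was high in NTG alone, and its interaction was 1.82 ± 0.565.

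Mylk4, a myosin light chain kinase of heart, followed another order. It read 10.36, 10.07 and 10.34 in NTG, 9.49, 8.19 and 8.85 in Tm180, 9.25, 8.89 and 9.19 in PLB KO, and 8.41, 8.06 and 8.23 in Tm180/PLB KO. The transgenic arrays lay below their controls in both backgrounds, by 1.41 and 0.88 on the log2 scale, and the interaction was 0.53 (−0.14 to 1.21). It was 0.21 without Tm180 replicate 2, the lowest of all arrays but 1, and 0.86 without Tm180 replicate 1. For Ces1d, a carboxylesterase, the interaction was 0.995 ± 0.509, and for Amy1, an amylase, 0.74 ± 0.386, which became 0.59 and 0.42 without Tm180 replicate 2. Their PLB KO arrays read 8.51 to 8.97 and 8.42 to 8.83, which overlapped NTG.

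**Figure D4:**
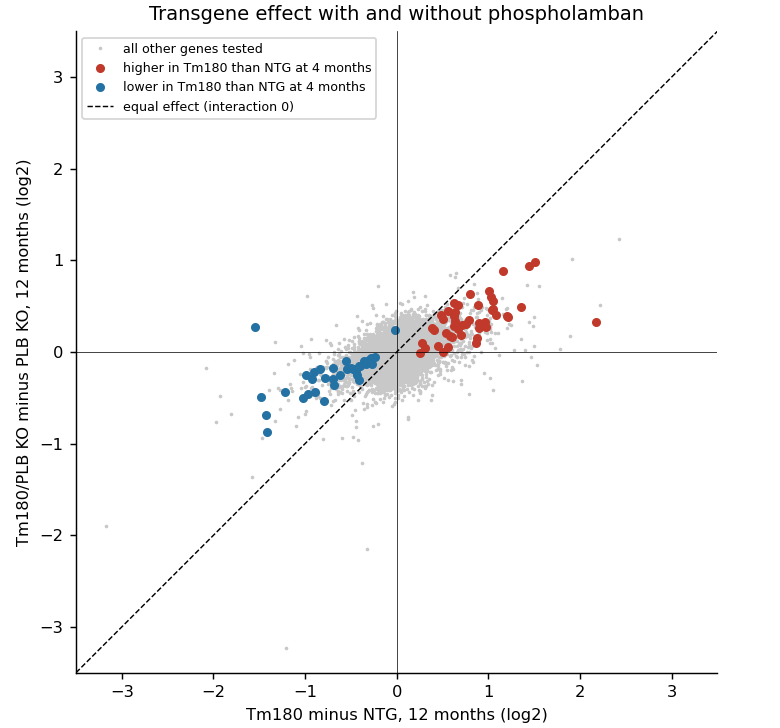
The difference between Tm180 and NTG (horizontal) and between Tm180/PLB KO and PLB KO (vertical) at 12 months, in log2, with a grey point for each gene tested and larger points for genes called in Tm180 against NTG at 4 months (Xist, Ddx3y, Eif2s3y, Kdm5d and Uty are left out where tested). The 47 genes higher at 4 months all lie below the dashed line of equal effects and the 34 lower genes all lie above it.

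The same interaction at 4 months shares no array with that at 12 months, although the spread was estimated over both ages. Sex went with genotype at 4 months: Xist exceeded the Y-linked genes in 0 of 3 PLB KO and 3 of 3 Tm180/PLB KO arrays, and in 2 of 3 arrays each of NTG and Tm180. The Y-linked genes had a median 4-month interaction of −4.87 and Xist one of 5.25, so in that pair sex and transgene cannot be told apart. At 4 months 0 genes were called (limma, 190 at an unadjusted p under 0.05, 1.19% of those tested). Of the 20 genes of smallest p at 12 months, 18 had the same sign at 4 months, 6 of them at an unadjusted p under 0.05, and 0 reached that p with the opposite sign. With the Y-linked mean as a covariate, 15 of the 20 had the same sign, 2 of them at an unadjusted p under 0.05. The share over all genes is not given for the fit with this covariate. Without it, 9353 of 15918 genes (58.8%) had the same sign. Of the 289 genes at an unadjusted p under 0.05 at 12 months, 234 did (81.0%), again without it. The median of the 10 positive genes was 0.734 at 12 months and 0.298 at 4 months, and that of the 10 negative genes −0.888 and −0.442.

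Single genes differed in how the ages compared. Nppa had −1.55 ± 0.395 at 4 months (unadjusted p = 0.000806, limma), close to its value at 12 months, and −1.46 ± 0.443 with the Y-linked mean as a covariate. Myh7 had −1.01, Xirp2 −0.59, Gpt 0.57, Masp1 −0.57 and Crhr2 0.47 at 4 months. Etv5 had −0.16, Slc25a22 0.13, Ucp3 −0.06 and Dlx5 −0.06, all near 0. The difference between the interactions of the ages was called for 0 genes (limma, 78 at an unadjusted p under 0.05, 0.49%, lowest adjusted p = 1), so no gene was shown to differ between ages. Without Tm180 replicate 1 of 4 months, 1 gene, Enpp3, was called in this difference and in the 4-month interaction.

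**Figure D5:**
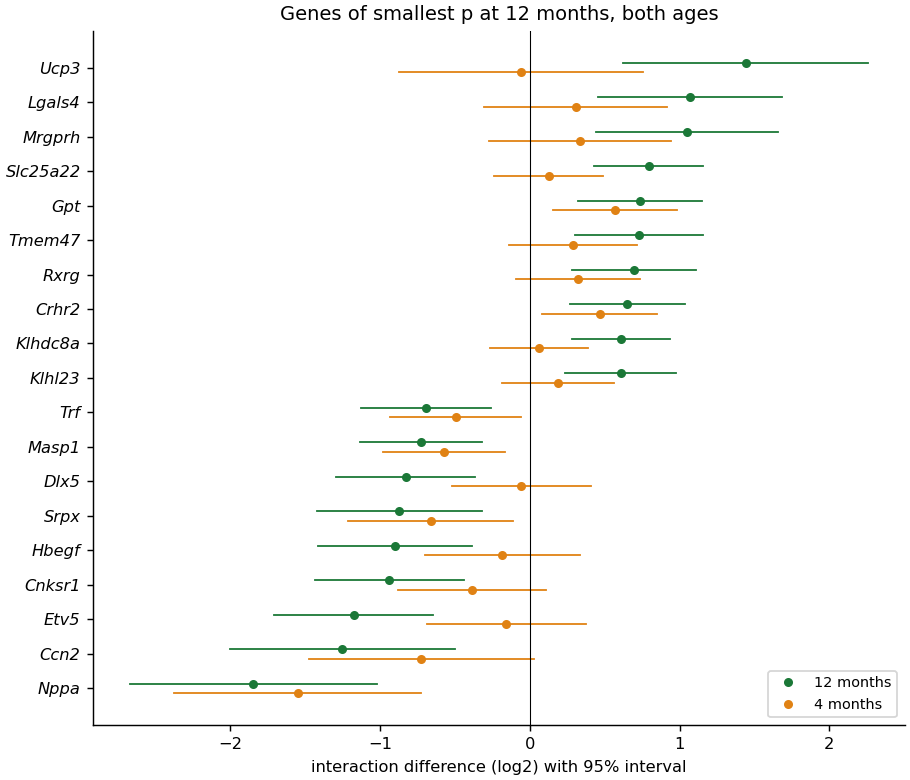
Interaction of 19 of the 20 genes of smallest p at 12 months, with points for the difference in log2 and lines for its 95% interval, at 12 months and at 4 months. Nppa lies at −1.85 and −1.55, whereas Ucp3 lies at 1.44 at 12 months and −0.06 at 4 months.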

How the data were processed

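Total RNA of left ventricle was hybridised to Affymetrix arrays, 1 per sample. The authors deposited log2 values for each probe set, summarised by RMA per the submitters' processing notes, which give no further settings here. Of 35557 probe sets, 21789 carried 1 gene symbol, 1621 several and 12147 none, and 21698 were matched to current symbols by Entrez identifier (RefSeq, GRCm38.p6). Each gene was represented by its probe set of highest mean, and genes above the 25th percentile (4.83) on at least 3 arrays were tested.

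A model of 8 group means was fitted to all 24 arrays with limma 3.58.1 in R 4.3.3 (16 residual degrees of freedom), and p-values were adjusted by Benjamini-Hochberg over 15918 genes, with a threshold of 0.05. The scripts were tested on simulated data. Array medians ranged from 5.777 to 5.901, and arrays of a group at 12 months correlated at 0.967 to 0.9822. The number of arrays limits the precision.

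Named were Pln and Tpm1, the 10 genes of smallest interaction p in each direction, the 8 largest in each direction of those called in Tm180 minus NTG at 4 months, and up to 4 called members of each of 37 gene lists, otherwise the 2 of smallest p. Predicted and clone-named genes were counted only. One gene of the rule is counted but not reported here. The members and lists were chosen with earlier results of these data known. One array of Tm180/PLB KO has 12 months in its source name and 4 months in its title, description and age, and was kept at 4 months. Alternatives were the replicate number as a block, the arrays of an age alone, other dim filters, variance priors, centring, array weights, averaged probe sets, 3 covariates, each array left out, and, added later, the 4-month genes chosen from the arrays of 4 months alone.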

Additional observations from a re-analysis of the deposited data

How the results depend on the processing

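The 12-month interaction had 0 called genes under each alternative that kept all arrays of 12 months, and between 0 and 3 when 1 array was left out (3 without Tm180 replicate 1 of 12 months: Lcn2, Cxcl13 and Ahsg). The count for Tm180 minus NTG at 12 months was the least stable: 127 became 2 when the 12 arrays were fitted alone, and between 15 and 144 with 1 array left out. Tm180/PLB KO minus PLB KO ranged from 0 to 1 with 1 array left out, as did the 4-month interaction and the difference between the ages. Same-numbered arrays of different genotypes at 12 months deviated from their group means together in 16 of 18 pairs (correlation over 0.1, lowest −0.104, median 0.549), and 11 of 12 arrays correlated best with their own number. This is read from the data and not from the labels. The descriptions also carry a code whose letter goes with the replicate number, but the labels do not say what it marks. With the replicate number as a block, the interaction still had 0 called genes, with 858 at an unadjusted p under 0.05 and a lowest adjusted p of 0.381, while Tm180 minus NTG had 713 and Tm180/PLB KO minus PLB KO 0, with 1299 at an unadjusted p under 0.05. The median standard error of the interaction was 0.165 with the block and 0.225 without it, and that of Casq2 0.102 and 0.254. The intervals above leave the number out. The genes called higher and lower at 4 months numbered 214 and 343 with the block, 321 and 455 with array weights, 90 and 70 with the immediate-early covariate, and 44 and 22 without a dim filter. For these genes, chosen anew under each alternative, the median 12-month interaction stayed negative for those higher (−0.503 to −0.24) and positive for those lower (0.243 to 0.535). With 1 array left out it lay between −0.503 and −0.311, and between 0.305 and 0.535. Centring the arrays moved the median of all genes from −0.0136 to −0.00748. The causes were not tested.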

Other observations

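Some gene groups that no comparison above turned on had values that a reader may want to see. Alas2, the first enzyme of heme synthesis in red cell precursors, read 8.18, 7.56 and 8.01 in NTG, 7.997, 7.887 and 7.25 in Tm180, 7.02, 6.77 and 7.36 in PLB KO, and 7.55, 7.95 and 7.81 in Tm180/PLB KO. Its PLB KO arrays lay below all NTG and Tm180/PLB KO arrays, Tm180 replicate 3 lay among them, and its interaction was 0.93 ± 0.304 (unadjusted p = 0.00623, adjusted p = 1, limma). Of 45 genes of growth and hypertrophic signalling, the median was −0.018, with 4 positive and 3 negative at an unadjusted p under 0.05. Among these, Fgf16, a growth factor made by heart muscle, had 0.71 ± 0.247 and Agtr1a, the angiotensin receptor, 0.74 ± 0.288 (0.485 without Tm180 replicate 2). The interaction of 15 endothelial markers had a median of −0.008.

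Sbk3, a kinase gene, read 4.70, 5.40 and 4.90 in NTG, 4.55, 4.45 and 4.87 in Tm180, 5.71, 5.80 and 5.99 in PLB KO, and 4.26, 4.48 and 5.12 in Tm180/PLB KO. As for Dlx5, PLB KO stood above all other arrays, and the transgene difference was −0.38 with phospholamban and −1.21 without it. The atrial light chain Myl7 was likewise high in PLB KO, at 8.36 to 9.88, and in NTG replicate 2 (8.58), with Tm180/PLB KO replicate 3 (6.60) next, and these 5 arrays were also the highest for Sbk3. With the mean of Myl7, Myl4 and Sln as a covariate, the lowest adjusted p of Tm180/PLB KO minus PLB KO was 0.999 (limma), in place of 0.429. That pair then had 515 genes at an unadjusted p under 0.05, in place of 451. The lowest adjusted p of the interaction was 0.184 with this covariate (limma), with 0 genes called. The covariate was high in the PLB KO arrays, so atrial tissue and genotype cannot be told apart. The cause was not tested.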
